A study of Mus musculus with 15 samples.

Results

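The genes Naaa, Ppt1, Wdfy4, Rab7b, Gcsam, Septin3 and Cd8a of mouse XCR1+ dendritic cells (DCs) were followed across 5 groups of sorted cells. They were chosen by name, with earlier results of these arrays known, as an endolysosome and cross-presentation set that fell when XCR1+ DCs matured. The background below gives such a role to Naaa, Ppt1, Wdfy4 and Rab7b, and none to Gcsam, Septin3 and Cd8a. All 7 had at least 1 probe set, of 18194 genes with a probe set that carried exactly 1 symbol, and all 7 passed the filter on dim signal (over 4.39, which 40% of the table's values lie below, on 3 or more arrays) that left 13629 genes tested. The 7 genes had 23 probe sets in all, and each gene was represented by the brightest of its probe sets, by the mean of the 15 arrays.

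The arrays, Affymetrix expression arrays of the mouse genome, measured total RNA of mouse DCs sorted as CD11c+ CD317- CD172a- cells. The groups, with 3 arrays each, were CCR7+ and CCR7- cells of the untreated thymus, CCR7+ cells of the spleen 18 h after an intraperitoneal injection of 10 µg polyI:C, CCR7+ cells of the untreated spleen, and CCR7- cells of the untreated spleen. CCR7+ cells were also gated as CD117- and are called mature in the labels, while CCR7- cells were CD117+ and are called immature. XCR1 stands in the sample names but not in the gates, strain and age are not in the labels used here, and the labels do not say whether the 3 arrays of a group came from separate mice, pools or sorts. PolyI:C is a synthetic double-stranded RNA that Toll-like receptor 3 (TLR3) recognises.

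As background, XCR1+ DCs, also called cDC1, take up dead cells and present peptides of their proteins on MHC class I to CD8 T cells, which is called cross-presentation. Upon maturation DCs express CCR7, which directs them towards T cell zones, and lower their uptake of antigen. Naaa and Ppt1 encode soluble lysosomal hydrolases. NAAA cleaves fatty acid ethanolamides such as palmitoylethanolamide, and PPT1 removes palmitate from proteins and is the enzyme lost in the infantile form of neuronal ceroid lipofuscinosis. WDFY4 is a BEACH domain protein that mouse cDC1 need for cross-presentation of cell-associated antigen, and RAB7B is a small GTPase of late endosomes and of traffic between endosomes and the Golgi. GCSAM is a signalling adaptor best known in germinal centre B cells. SEPTIN3 is a GTP-binding cytoskeletal protein studied mainly in neurons. CD8A is the alpha chain of CD8, which mouse splenic cDC1 carry as an alpha-alpha dimer.

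Of 12 XCR1+ DC markers, 11 had a probe set, and all 11 were above the filter value of 4.39 in every array of 4 groups, with 10 of 11 in thymus CCR7+ cells. Their mean level was lower in every CCR7+ array than in the CCR7- arrays of the same tissue. The mean log2 level of the 11 markers per array was 8.89 to 9.11 in thymus CCR7+ and 10.76 to 10.92 in thymus CCR7- cells, and 9.32 to 9.55 after polyI:C and 9.54 to 10.29 in untreated spleen CCR7+ cells, against 11.06 to 11.17 in spleen CCR7- cells. Of the 11, 6 were called lower and 2 higher in thymic, 7 lower and 1 higher in polyI:C and 8 lower and 3 higher in homeostatic splenic maturation (limma, adjusted p under 0.05). In this order the falls were 54.5%, 63.6% and 72.7% of the list, against 20.4%, 28% and 24.1% of all genes tested. The rises were 18.2%, 9.09% and 27.3%, against 16.8%, 18.4% and 12.3%. The medians were -0.71, -1.34 and -1.06, against -0.06, 0.02 and -0.03 over all genes tested. The 1 rise after polyI:C, of Ly75, was lost without any 1 of 5 arrays (number 1 of thymus CCR7-, 1 and 2 of spleen CCR7- and 1 and 2 of the polyI:C cells). Xcr1, the chemokine receptor that names the cells, averaged 5.25 ± 0.50 in thymus CCR7+ and 11.40 ± 0.23 in thymus CCR7- cells (SD, n = 3 each), a log2 change of -6.15. In the spleen it averaged 7.54 ± 0.46 after polyI:C and 8.03 ± 1.62 in untreated CCR7+ cells, against 11.58 ± 0.20 in CCR7- cells (SD, n = 3 each), changes of -4.04 and -3.55.

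Macrophage and monocyte markers moved in both directions. Of 12 such markers, 10 had a probe set, and 5 were called higher and 2 lower in thymic, 3 and 3 in polyI:C, and 2 and 2 in homeostatic splenic maturation. The medians were 0.91, 0.25 and 0.11. In the same order the rises were 50%, 30% and 20% of the list, against 16.8%, 18.4% and 12.3% of all genes tested. The falls were 20%, 30% and 20%, near the 20.4%, 28% and 24.1% of all genes tested. C1qa and C1qc, complement genes of macrophages, rose by 1.45 and 1.47 in thymic maturation, while Csf1r, the receptor of macrophage colony-stimulating factor, changed by -2.50. The mean log2 level of the 10 was 6.22 to 6.92 per array in thymus CCR7+ and 6.50 to 6.59 in thymus CCR7- cells, and 6.43 to 7.35 after polyI:C, 6.60 to 7.34 in untreated spleen CCR7+ and 6.75 to 7.44 in spleen CCR7- cells. Below the filter value in every array of a group were 2 of the 10 in thymus CCR7- cells and 0 in each of the other 4 groups. The 5 thymic rises became 3 when number 1 of the thymus CCR7- or 2 of the thymus CCR7+ arrays was left out, and the 2 thymic falls became 1 without number 3 of thymus CCR7+ cells. The part of either marker list in the changes of the 7 genes was not tested.

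Array medians lay between 4.855 and 4.996. Arrays of a group correlated with r of at least 0.979, except in untreated spleen CCR7+ cells, where the lowest r was 0.962.

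RefSeq promoter windows (build GRCm38.p6) of 250 bases before to 50 bases after the gene start were matched for 5 of the 7 genes, namely Naaa, Ppt1, Wdfy4, Gcsam and Cd8a, and not for Rab7b and Septin3. The 250 bases before the start are shown for Naaa and Wdfy4, whose 15 values correlated with r of 0.98, and for Cd8a, with r of 0.55 to Naaa and 0.50 to Wdfy4. The Naaa stretch lies at chr5:92278182-92278431 (minus strand), the Wdfy4 stretch at chr14:33185067-33185316 (minus strand) and the Cd8a stretch at chr6:71373177-71373426 (plus strand). Capitals mark a GC box read on the reverse strand in Naaa and a CCAAT box read on the reverse strand in Wdfy4.
Naaa: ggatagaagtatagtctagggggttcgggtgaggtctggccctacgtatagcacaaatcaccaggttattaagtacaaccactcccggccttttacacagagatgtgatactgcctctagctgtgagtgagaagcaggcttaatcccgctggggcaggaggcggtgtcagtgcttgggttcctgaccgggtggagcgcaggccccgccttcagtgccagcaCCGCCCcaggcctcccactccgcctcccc
Wdfy4: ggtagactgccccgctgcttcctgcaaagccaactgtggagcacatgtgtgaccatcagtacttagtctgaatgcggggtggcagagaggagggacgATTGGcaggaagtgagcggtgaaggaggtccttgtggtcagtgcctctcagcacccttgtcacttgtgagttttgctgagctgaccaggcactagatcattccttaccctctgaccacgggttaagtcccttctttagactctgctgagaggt
Cd8a: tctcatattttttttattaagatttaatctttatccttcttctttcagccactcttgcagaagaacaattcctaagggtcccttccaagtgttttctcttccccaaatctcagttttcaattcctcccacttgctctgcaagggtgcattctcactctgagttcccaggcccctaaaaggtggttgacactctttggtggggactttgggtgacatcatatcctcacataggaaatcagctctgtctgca
In all, 6 motifs were searched on both strands of the 300-base windows. A CCAAT box (CCAAT) was found in 2 of 5 windows, in Wdfy4 at -153 to -149 from the start and in Naaa at 16 to 20, past the printed stretch, against 37.4% of 32851 RefSeq promoter windows. A GC box (GGGCGG) was found in Naaa alone, at -29 to -24, against 35.7% of all windows. The other 4 motifs were found in none of the 5 windows. These were an AP-1 site (TGANTCA, in 7.81% of all windows), an E-box of the TFEB type (CACGTG, 7.15%), a PU.1 site (GAGGAAGT, 3.2%) and a TATA box (TATAAA, 13.6%). None of the motifs found overlapped another. The windows of Naaa, Wdfy4, Gcsam, Ppt1 and Cd8a held 58.7%, 54.3%, 53.0%, 48.7% and 46.7% G and C. The median over all windows was 52.7%, with quartiles of 45.7% and 61.7%.

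Naaa, the fatty acid ethanolamide hydrolase, was high in both CCR7- groups and lower in every CCR7+ array. On the log2 scale its values were 7.90, 7.50 and 7.77 in thymus CCR7+ cells, against 13.28, 12.86 and 13.04 in thymus CCR7- cells. In the spleen they were 10.07, 10.07 and 8.12 after polyI:C and 11.30, 12.07 and 11.58 in untreated CCR7+ cells, against 13.44, 13.33 and 13.40 in CCR7- cells. The 5 groups did not overlap with their neighbours in the order of their means, which ran from thymus CCR7+ at the low end over polyI:C, untreated spleen CCR7+ and thymus CCR7- cells to spleen CCR7- cells. The log2 change of CCR7+ against CCR7- cells was -5.34 in the thymus, -3.98 after polyI:C and -1.74 in the untreated spleen (standard error 0.39 each). On the linear scale, thymus CCR7+ cells held 2.48% of the value of thymus CCR7- cells, while polyI:C and untreated spleen CCR7+ cells held 6.36% and 29.9% of that of spleen CCR7- cells. Because the values come from bulk RNA, fewer cells of a type and less RNA per cell cannot be told apart.

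Ppt1, the depalmitoylating hydrolase, had the same order of groups as Naaa. Its log2 values were 8.79, 8.57 and 9.16 in thymus CCR7+ cells, against 13.38, 13.48 and 13.40 in thymus CCR7- cells. Splenic values were 11.15, 10.48 and 8.90 after polyI:C and 11.05, 12.25 and 12.22 in untreated CCR7+ cells, against 13.63, 13.64 and 13.66 in CCR7- cells. The polyI:C arrays overlapped both the untreated spleen CCR7+ arrays and the thymus CCR7+ arrays, and every CCR7+ array lay below every CCR7- array. The log2 change was -4.58 in the thymus, -3.47 after polyI:C and -1.80 in the untreated spleen (standard error 0.44), which left 4.17%, 9.06% and 28.7% of the CCR7- value.

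Wdfy4, the cross-presentation gene, had log2 values of 8.23, 8.57 and 8.37 in thymus CCR7+ cells, against 12.76, 12.67 and 12.60 in thymus CCR7- cells. Its splenic log2 values were 9.50, 9.57 and 8.42 after polyI:C and 10.49, 11.22 and 11.73 in untreated CCR7+ cells, against 12.95, 12.85 and 12.71 in CCR7- cells. The 2 CCR7- groups overlapped, as did the thymus CCR7+ and polyI:C groups, and the other neighbours were separate. Wdfy4 changed by -4.29 in thymic, -3.68 in polyI:C and -1.69 in homeostatic splenic maturation, the last being the comparison within the untreated spleen (standard error 0.30), leaving 5.11%, 7.82% and 31.0% of the CCR7- value.

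Rab7b, the late endosomal GTPase, had log2 values of 6.59, 6.03 and 6.57 in thymus CCR7+ cells, against 11.65, 11.55 and 11.77 in thymus CCR7- cells. After polyI:C they were 7.90, 7.95 and 6.57 and in untreated spleen CCR7+ cells 8.26, 9.63 and 8.98, against 11.67, 11.48 and 11.80 in spleen CCR7- cells. The 2 CCR7- groups lay on the same level, and 1 polyI:C array reached down to the thymus CCR7+ values. The log2 change was -5.26 in thymic, -4.18 in polyI:C and -2.69 in homeostatic splenic maturation (standard error 0.36), and 2.61%, 5.51% and 15.4% of the CCR7- value was left. The homeostatic fall of Rab7b was the largest of the 7 genes.

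Gcsam, the adaptor of germinal centre B cells, was measured at 6.30, 6.40 and 6.33 (log2) in thymus CCR7+ cells, against 11.02, 10.83 and 10.73 in thymus CCR7- cells. In the spleen its values were 7.46, 7.41 and 5.81 after polyI:C and 8.62, 9.02 and 8.88 in untreated CCR7+ cells, against 11.38, 11.36 and 11.08 in CCR7- cells. Replicate 3 of the polyI:C arrays was below all thymus CCR7+ arrays and the other 2 were above them. Gcsam changed by -4.52 in thymic and -4.38 in polyI:C maturation, the closest pair of falls among the 6 genes other than Cd8a, and by -2.43 in homeostatic splenic maturation (standard error 0.32). Of 13 B cell and germinal centre B cell markers, 11 had a probe set. Their mean log2 level per array was 5.78 to 6.86 in thymus CCR7+ and 5.58 to 5.92 in thymus CCR7- cells, 5.77 to 6.11 after polyI:C, 6.56 to 7.55 in untreated spleen CCR7+ and 5.75 to 6.29 in spleen CCR7- cells. Of the 11, 7 (63.6%) rose in homeostatic splenic maturation, where Gcsam fell, against 12.3% of all genes tested. Only 4 rose without number 1 of spleen CCR7- or 2 of untreated spleen CCR7+ cells. In thymic maturation 3 (27.3%) rose, against 16.8%, and 0 to 4 without single arrays. In polyI:C maturation 1 (9.09%) rose, against 18.4%, and 1 fell. Below the filter value in every array of a group were 2 of the 11 in thymus CCR7-, 1 in spleen CCR7- and 0 in each group of CCR7+ cells. Their part in the Gcsam values was not tested.

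Septin3, the GTP-binding cytoskeletal gene, was higher in thymus CCR7- cells than in any other group. Its log2 values were 6.68, 6.34 and 6.82 in thymus CCR7+ cells, against 11.44, 11.27 and 11.06 in thymus CCR7- cells. Splenic values were 6.001, 6.45 and 7.33 after polyI:C and 8.18, 8.03 and 8.19 in untreated CCR7+ cells, against 10.69, 9.78 and 9.81 in CCR7- cells. Thymus CCR7+ and polyI:C arrays overlapped, and all other neighbouring groups were separate. The change was -4.64 in thymic, -3.50 in polyI:C and -1.96 in homeostatic splenic maturation (standard error 0.30), which left 4.003%, 8.84% and 25.7% of the CCR7- value.

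Cd8a, the CD8 alpha chain, fell least. It had log2 values of 8.94, 9.20 and 9.64 in thymus CCR7+ cells, against 10.34, 10.76 and 10.39 in thymus CCR7- cells, so that the groups were separate but close. In the spleen it had 12.10, 12.09 and 11.52 after polyI:C and 9.97, 11.81 and 12.26 in untreated CCR7+ cells, against 12.58, 12.86 and 12.39 in CCR7- cells. Replicate 1 of the untreated spleen CCR7+ arrays was far below the other 2 of its group. The log2 change was -1.24 in thymic, -0.71 in polyI:C and -1.26 in homeostatic splenic maturation (standard error 0.43), and 42.4%, 61.3% and 41.7% of the CCR7- value was left. Without replicate 1 of the untreated spleen CCR7+ arrays the homeostatic change of Cd8a was -0.57. T cells and thymocytes express Cd8a, and 13 of 14 of their markers had a probe set. The mean log2 level of these markers was 6.31 to 7.64 per array in thymus CCR7+ and 5.14 to 5.90 in thymus CCR7- cells, 4.92 to 5.01 after polyI:C, 4.80 to 5.01 in untreated spleen CCR7+ and 4.39 to 4.65 in spleen CCR7- cells. Of the 12 markers tested, 9 (75%) rose in thymic maturation, where Cd8a was lower, against 16.8% of all genes tested. In polyI:C and in homeostatic splenic maturation 2 (16.7%) rose, near the 18.4% and 12.3% of all genes tested. Without single arrays these counts were 1 to 2 and 1 to 3. The number of markers below the filter value in every array was 0 in thymus CCR7+ and 1 in thymus CCR7- cells, 3 after polyI:C, 3 in untreated spleen CCR7+ and 4 in spleen CCR7- cells. The part of T cell RNA in the Cd8a values was not tested.

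**Figure D1:**
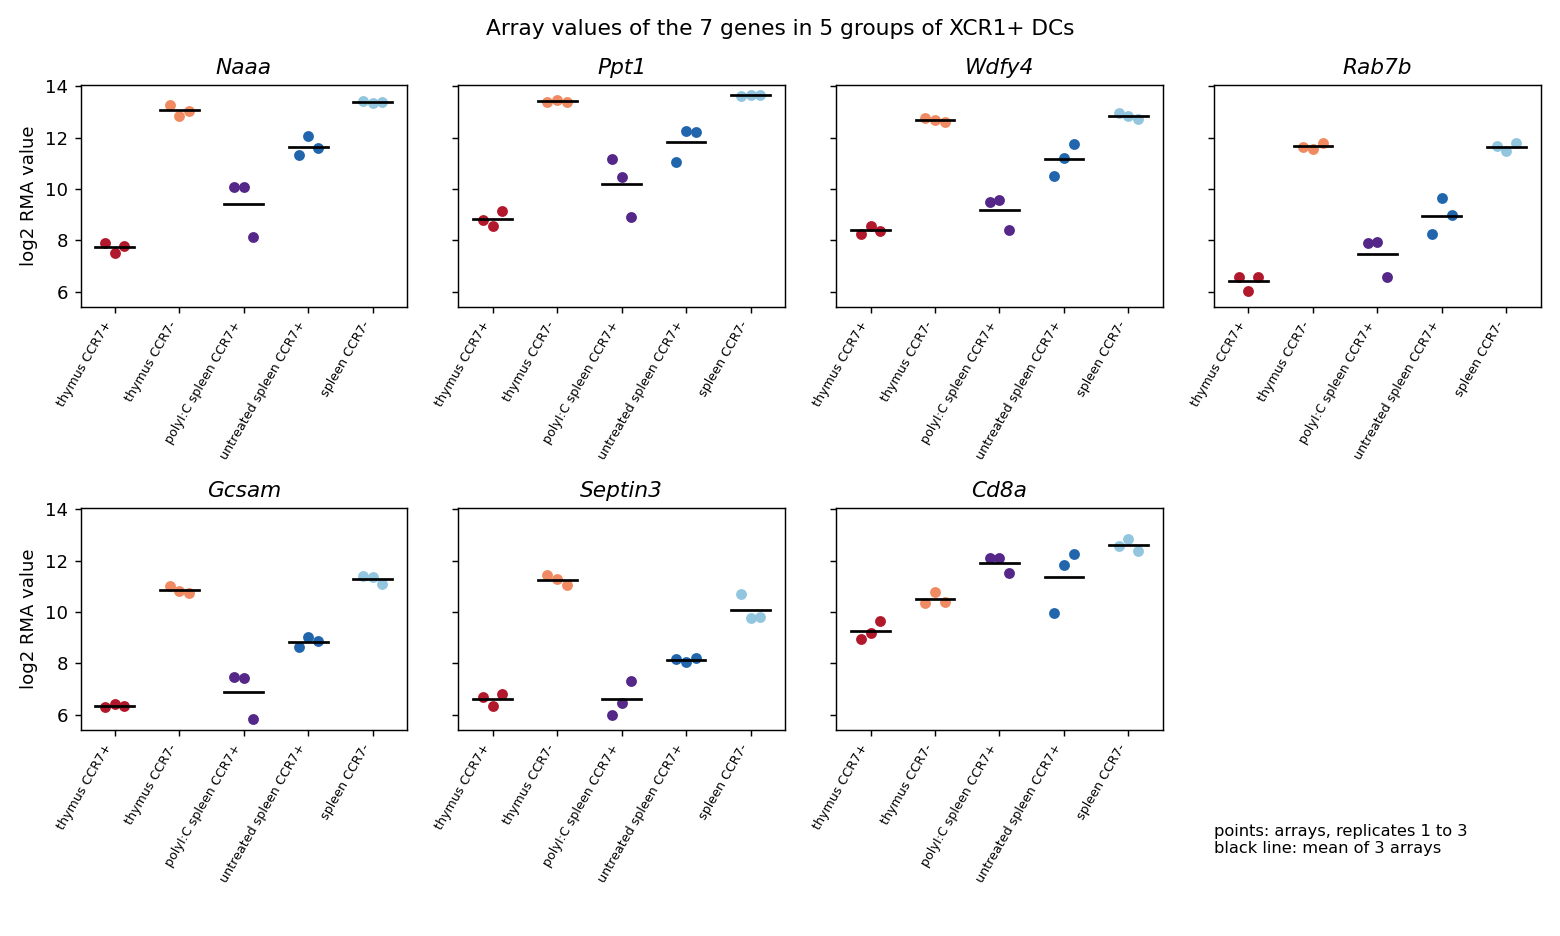
Log2 RMA value (y axis) of each of the 7 genes in the 15 arrays, with points for the arrays and a black line for the mean of the 3 arrays of a group. In 6 genes the thymus CCR7+ points lie near or below the polyI:C points, the untreated spleen CCR7+ points lie higher and the CCR7- points highest, while in Cd8a the thymus groups lie below most of the spleen points.

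The order of depth was thymic, then polyI:C, then homeostatic splenic maturation in 6 of the 7 genes, with Cd8a as the exception. The median log2 change of the 7 genes was -4.58 in thymic, -3.68 in polyI:C and -1.80 in homeostatic splenic maturation, against medians over all genes tested of -0.06, 0.02 and -0.03. The change of Naaa was the 9th lowest of 13629 genes in thymic maturation, 56th in polyI:C and 474th in homeostatic splenic maturation, and that of Rab7b was 11th, 37th and 37th. Of the 7 genes, 7 were called lower in thymic, 6 in polyI:C and 7 in homeostatic splenic maturation at a limma adjusted p under 0.05, where 20.4%, 28% and 24.1% of all genes were called lower (37.3%, 46.4% and 36.5% in either direction). These falls chose the members, so they are a description and nothing is read from the counts. The call not made was that of Cd8a after polyI:C. The count of 7 became 6 in thymic maturation when any thymus CCR7- array or a thymus CCR7+ array of number 1 or 2 was left out, and in homeostatic splenic maturation when array 1 or 2 of spleen CCR7- or array 1 of untreated spleen CCR7+ cells was left out. The thymic and polyI:C falls rest on different CCR7- arrays, and the difference between them was not tested.

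**Figure D2:**
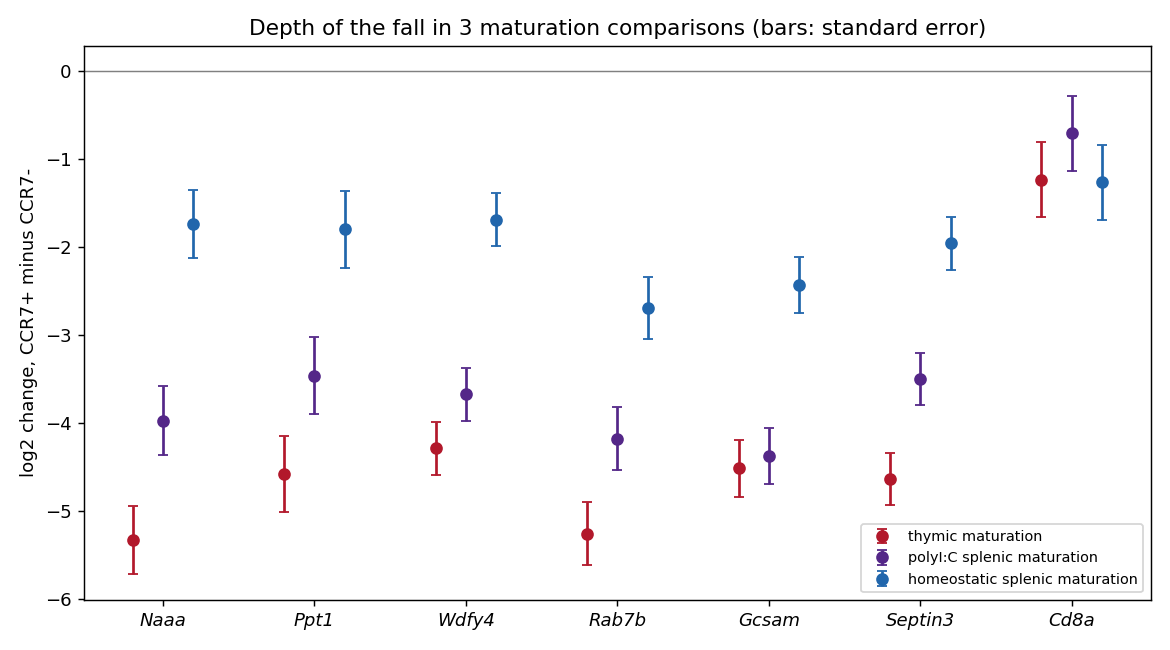
Log2 change of CCR7+ minus CCR7- cells (y axis) for each of the 7 genes in thymic, polyI:C and homeostatic splenic maturation, with the standard error as bars. The homeostatic fall is the shallowest in 6 genes, from -1.69 to -2.69, and all 3 changes of Cd8a lie between -1.26 and -0.71.

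The thymic change was set against the homeostatic splenic change in 1 model. Both the arrays and the genes are those of the falls described above, and earlier values of this difference were known for Naaa and Rab7b, so the test is not independent of how the genes were chosen. The difference, thymic minus splenic log2 change, was negative and passed the test in 6 of the 7 genes, against 3.18% of all genes tested, 1.39% lower and 1.79% higher. Naaa had the largest difference, -3.59 (standard error 0.55, adjusted p = 0.00214). It was followed by Ppt1 with -2.78 (adjusted p = 0.0241), Septin3 with -2.68 (adjusted p = 0.0025), Wdfy4 with -2.60 (adjusted p = 0.00317), Rab7b with -2.57 (adjusted p = 0.0109) and Gcsam with -2.09 (adjusted p = 0.0208). For the probe sets used, the fold loss in the thymus was 12.1 times that in the spleen for Naaa and 4.25 times for Gcsam. Over all probe sets that passed the filter, the difference ran from -3.59 to -0.79 for Naaa and -2.09 to -1.39 for Gcsam. It ran from -2.78 to 0.12 for Ppt1, -2.60 to -0.24 for Wdfy4, -2.57 to -0.35 for Rab7b and -2.83 to -2.68 for Septin3. The difference of Cd8a was 0.02 (standard error 0.60, adjusted p = 0.991), and it turned negative, between -0.66 and -0.03, when any 1 of 5 arrays was left out. These were numbers 1 and 3 of thymus CCR7-, number 3 of thymus CCR7+, number 2 of spleen CCR7- and number 1 of untreated spleen CCR7+ cells. The call of Ppt1 ended without any 1 of 7 arrays (numbers 2 and 3 of thymus CCR7-, 1 and 2 of thymus CCR7+, 2 and 3 of spleen CCR7- and 3 of untreated spleen CCR7+ cells), with differences of -2.79 to -2.59 and adjusted p up to 0.0676. That of Gcsam ended without number 1 of thymus CCR7-, 3 of thymus CCR7+ or 3 of spleen CCR7- cells (adjusted p up to 0.0578). With the replicate number as a block within each fraction, fitted on the 4 untreated groups, the same 6 members were called, and 1462 of all genes (10.7%) instead of 433.

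Which fraction set the tissues apart was read from thymus against spleen cells of the same fraction. The arrays are again those of the falls that chose the members, so these tests are not independent of that choice. In CCR7+ cells all 7 genes were lower in the thymus than in the untreated spleen, against 12.2% of all genes called, 3.47% lower and 8.71% higher. The log2 difference was -3.93 for Naaa (limma, adjusted p = 1.53e-05), -3.00 for Ppt1, -2.76 for Wdfy4, -2.56 for Rab7b, -2.50 for Gcsam, -1.52 for Septin3 and -2.09 for Cd8a (limma, adjusted p = 0.00511). In CCR7- cells 2 of the 7 genes passed the test, where 8.16% of all genes did. Septin3 averaged 11.26 ± 0.19 in thymus and 10.09 ± 0.52 in spleen CCR7- cells (SD, n = 3 each), a log2 difference of 1.16 (limma, adjusted p = 0.0247). Cd8a averaged 10.50 ± 0.23 in thymus and 12.61 ± 0.23 in spleen CCR7- cells (SD, n = 3 each), a difference of -2.11 (limma, adjusted p = 0.00548). The other 5 genes differed by -0.41 (Gcsam) to 0.01 (Rab7b), and did not pass the test (limma, adjusted p from 0.624 to 0.998). Among them, the thymus arrays of Naaa, Ppt1 and Gcsam all lay below the spleen arrays, while the groups of Wdfy4 and Rab7b overlapped. Cd8a was therefore lower in the thymus in both fractions, and Septin3 was higher in the thymus among CCR7- and lower among CCR7+ cells. The Septin3 call in CCR7- cells ended when any thymus CCR7- array, or number 2 or 3 of the spleen CCR7- arrays, was left out, with differences of 1.01 to 1.26 and adjusted p up to 0.113. With the replicate block within each fraction, Gcsam passed as well in CCR7- cells (adjusted p = 0.0371), and 2146 genes (15.7%) were called there instead of 1112, and 3501 (25.7%) in CCR7+ cells instead of 1660.

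PolyI:C was set against no treatment within spleen CCR7+ cells. Since both are measured against the same spleen CCR7- arrays, this value is also the difference between the 2 splenic falls. Of the 7 genes, 6 were lower after polyI:C, against 18.2% of all genes called, 9.66% lower and 8.58% higher. The log2 difference was -2.23 for Naaa (standard error 0.39, adjusted p = 0.00115), -1.99 for Wdfy4 (adjusted p = 0.00039), -1.95 for Gcsam (adjusted p = 0.000722), -1.66 for Ppt1 (adjusted p = 0.0159), -1.54 for Septin3 (adjusted p = 0.00235) and -1.49 for Rab7b (adjusted p = 0.00951). The 2 groups overlapped in Ppt1. Cd8a differed by 0.56 (standard error 0.43, adjusted p = 0.442), with overlapping groups, and by -0.13 without untreated spleen CCR7+ replicate 1. The Ppt1 call ended without untreated spleen CCR7+ replicate 2 or 3 (adjusted p = 0.0594 and 0.0531). The same genes and arrays chose the members, which holds for this test as for the one before.

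Within their groups, 3 of the 15 arrays lay below the mean in 6 of the 7 genes, and the other 12 did so in 1 to 5. Replicate 3 of the polyI:C group lay below its group mean in 6 of the 7 genes, all but Septin3, and replicate 1 of the untreated spleen CCR7+ group lay below it in 6 of the 7, again all but Septin3. The third such array was number 3 of thymus CCR7- cells. Without that polyI:C array the polyI:C change was -3.33 for Naaa, -2.83 for Ppt1 and -3.84 for Gcsam. Among Naaa, Ppt1, Wdfy4, Gcsam and Rab7b, the deviations from the group means correlated with r of 0.68 to 0.94 in the 10 pairs, over 15 arrays that share labelling and normalisation. The 15 values themselves correlated with r of 0.97 to 0.99. Septin3 deviated the other way, with r of -0.62 to -0.44 to these 5 genes. The deviations of Cd8a correlated with those of the 5 genes with r of 0.37 to 0.78.

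**Figure D3:**
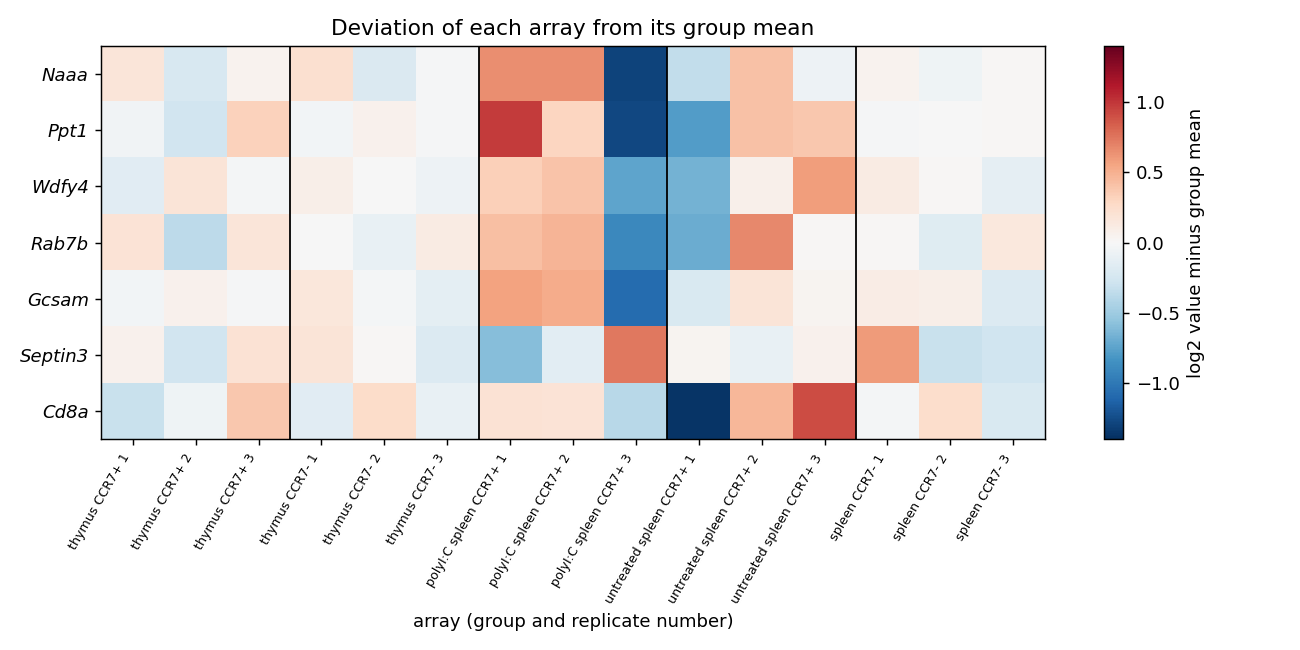
Deviation of each array from the mean of its group (colour, log2 units) for the 7 genes (rows) in the 15 arrays (columns, 3 per group, divided by black lines). The third polyI:C array is low in every gene but Septin3, and the first untreated spleen CCR7+ array is low in every gene but Septin3.

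The depth of the fall depended on the probe set. A second probe set of Naaa, 1452068_at, changed by -5.46, -3.68 and -2.44 on the log2 scale in thymic, polyI:C and homeostatic splenic maturation. In the same order Ppt1 1422468_at changed by -4.22, -4.18 and -2.14 and Gcsam 1442582_at by -4.69, -4.92 and -3.31. Septin3 1439833_at changed by -4.91, -3.03 and -2.08 and Rab7b 1435830_a_at by -4.04, -3.41 and -2.34. In these second probe sets the homeostatic change was again the shallowest, and for Gcsam the polyI:C change was deeper than the thymic one. Of the 17 probe sets of the 6 genes other than Cd8a that passed the filter on dim signal, the thymic change was the deepest in 12 and the polyI:C change was deeper than the thymic one in 5, while the homeostatic change was the shallowest in 14. Ppt1 1420015_s_at, above the filter value on all 15 arrays, changed by -2.03 in thymic, -2.78 in polyI:C and -1.78 in homeostatic splenic maturation, so that its thymic minus splenic difference was -0.25, against -2.78 for the probe set that stands for Ppt1. Naaa 1430819_at changed by -2.89, -3.14 and -2.11 in the same order. Among the 6 genes other than Cd8a, probe sets that were dim in CCR7- cells moved less. Wdfy4 1446867_at, which averaged 5.05 in thymus CCR7+ and 5.50 in thymus CCR7- cells, changed by -0.45, -0.04 and -0.20. The 5 probe sets of Cd8a changed by -1.33 to 0.06, and the positive value was that of 1440164_x_at after polyI:C.

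**Figure D4:**
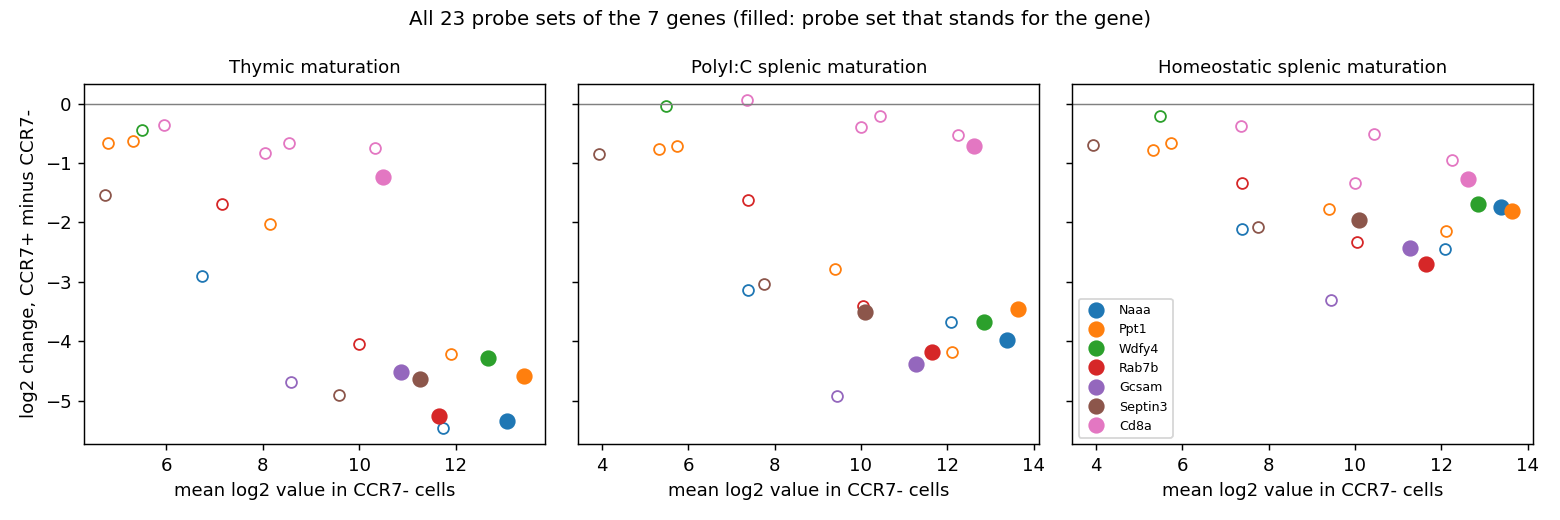
Log2 change of CCR7+ minus CCR7- cells (y axis) against the mean log2 value in the CCR7- cells (x axis) for all 23 probe sets of the 7 genes, in thymic, polyI:C and homeostatic splenic maturation, with filled points for the probe set that stands for the gene. Probe sets that are dim in CCR7- cells lie closer to 0, and the Cd8a points lie close to 0 at every level.

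The genes whose profile over the 15 arrays was most like the mean of the 7 standardised profiles were, by Pearson's r, Cd24a (0.992), Slamf8, Itga8, Alox5ap, Tlr3, Plbd1, Btla and P2ry6 (0.982). Since r does not depend on the size of a change, genes with like profiles can differ in depth. Cd24a changed by -1.65 in thymic, -1.30 in polyI:C and -0.85 in homeostatic splenic maturation. Tlr3, which encodes the receptor of polyI:C, changed by -5.70 in thymic, -4.22 in polyI:C and -3.14 in homeostatic splenic maturation. Slamf8, a SLAM family receptor, changed by -5.97, -4.65 and -3.28 in the same order, and Alox5ap, the activating protein of 5-lipoxygenase, by -4.80, -3.59 and -2.10. Of the 7 genes, 5 had r of 0.98 or 0.99 with that mean, Septin3 had 0.88 and Cd8a 0.59. For single members the nearest genes were Cd244a, Cd36 and Alox5ap for Naaa, Plbd1, Alox5ap and Cd244a for Ppt1, and Plbd1, Alox5ap and P2ry6 for Wdfy4. They were Alox5ap, Slamf8 and Acer3 for Rab7b, P2ry6, Havcr2 and Plbd1 for Gcsam, Itgae, Memo1 and Sdf2l1 for Septin3, and Tmem51, Dnase1l3 and Slc8b1 for Cd8a. Itgae, the CD103 integrin chain and nearest to Septin3 with r of 0.976, changed by -4.78 in thymic, -3.54 in polyI:C and -2.19 in homeostatic splenic maturation.

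Of 23 other lysosomal hydrolases and their activators, 10 fell and 4 rose in thymic, 15 fell and 2 rose in polyI:C, and 14 fell and 2 rose in homeostatic splenic maturation, so that 43.5%, 65.2% and 60.9% fell, against 20.4%, 28% and 24.1% of all genes. The rises were 17.4%, 8.7% and 8.7% of the list, against 16.8%, 18.4% and 12.3% of all genes. The median changes were -0.39, -1.24 and -0.66. Arsb, a sulfatase, changed by -3.30 in thymic, -4.33 in polyI:C and -2.57 in homeostatic splenic maturation. Man2b1, the lysosomal alpha-mannosidase, changed by -2.98 in thymic and -2.13 in homeostatic splenic maturation. Gaa, the acid alpha-glucosidase, rose by 2.50, 1.89 and 2.16 in thymic, polyI:C and homeostatic splenic maturation. The thymic minus splenic difference passed the test for Fuca1 (1.41, adjusted p = 0.00833) and Tpp1 (1.31, adjusted p = 0.00373) alone among the 23, both positive, whereas those of Naaa and Ppt1 were negative. After polyI:C 12 of the 23 (52.2%) were lower than in untreated CCR7+ cells, against 9.66% of all genes, with -2.22 for Hexa and -2.01 for Gm2a. Without polyI:C replicate 3, 7 were lower. The 4 thymic rises became 2 when number 1 or 3 of the thymus CCR7- or 2 or 3 of the thymus CCR7+ arrays was left out.

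Of 12 other enzymes of fatty acid ethanolamides and protein palmitate, 3 fell and 1 rose in thymic maturation, 6 fell in polyI:C and 6 in homeostatic splenic maturation. The falls were 25% of the list in thymic maturation, near the 20.4% of all genes, and 50% in both polyI:C and homeostatic splenic maturation, against 28% and 24.1% of all genes. Gde1, a glycerophosphodiesterase of ethanolamide synthesis, changed by -1.61, -2.65 and -1.36 and the depalmitoylase Abhd17a by -1.58, -2.39 and -1.31, in thymic, polyI:C and homeostatic splenic maturation. Ppt2, the relative of Ppt1, changed by -0.36 in thymic maturation, which did not pass the test (limma, adjusted p = 0.31), by -1.91 in polyI:C and by -0.69 in homeostatic splenic maturation.

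Of 22 other genes of cross-presentation and the phagosome, 3 fell and 6 rose in thymic, 6 fell and 7 rose in polyI:C, and 5 fell and 6 rose in homeostatic splenic maturation. The falls, 13.6%, 27.3% and 22.7% of the list, were at or below the 20.4%, 28% and 24.1% of all genes, and the rises were 27.3%, 31.8% and 27.3%, against 16.8%, 18.4% and 12.3%. Ncf4, a subunit of the phagocyte NADPH oxidase, changed by -2.97, -2.91 and -1.77, and Rab43, a GTPase linked to cross-presentation in mouse cDC1, by -1.62 in thymic and -1.19 in homeostatic splenic maturation. Ncf1, another oxidase subunit, rose by 1.10 in thymic maturation. The thymic minus splenic difference of Ncf4 was -1.20 (adjusted p = 0.034), and its call ended without any 1 of 9 of the 12 arrays of the untreated groups (all but number 2 of thymus CCR7+, 3 of spleen CCR7- and 1 of untreated spleen CCR7+ cells), with adjusted p up to 0.0900. The 5 homeostatic falls became 3 when number 1 or 2 of the spleen CCR7- or 1 of the untreated spleen CCR7+ arrays was left out.

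Around Rab7b, 24 genes of early to late endosome conversion and Rab7 partners included 3 that fell and 7 that rose in thymic, 4 and 6 in polyI:C, and 7 and 5 in homeostatic splenic maturation. The falls were 12.5%, 16.7% and 29.2% of the list, against 20.4%, 28% and 24.1% of all genes, and the rises 29.2%, 25% and 20.8%, against 16.8%, 18.4% and 12.3%. Rab7, the paralog of Rab7b, changed by -0.48 in thymic, -0.43 in polyI:C and -0.55 in homeostatic splenic maturation, and the polyI:C value did not pass the test (limma, adjusted p = 0.0587). Rab9, which acts between late endosomes and the Golgi, rose by 2.40, 2.25 and 2.30, and Rab38 of lysosome-related organelles by 2.00 in thymic maturation. The 7 homeostatic falls of this list became 4 when number 1 of the spleen CCR7- or of the untreated spleen CCR7+ arrays was left out, and 3 without number 2 of the spleen CCR7- arrays.

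Of 19 lysosomal membrane and biogenesis genes, 5 fell and 4 rose in thymic, 8 and 4 in polyI:C, and 5 and 2 in homeostatic splenic maturation. The falls were 26.3%, 42.1% and 26.3% of the list, against 20.4%, 28% and 24.1% of all genes, and the rises, 21.1%, 21.1% and 10.5%, were near the 16.8%, 18.4% and 12.3% of all genes. Lamp1, a lysosomal membrane glycoprotein, rose by 2.67, 1.93 and 1.61, and Cd68, a related glycoprotein of macrophages and DCs, changed by -3.07, -3.56 and -2.67 in the same order. Sort1, a sorting receptor for lysosomal proteins, had a thymic minus splenic difference of 2.15 (adjusted p = 0.00175). The 5 thymic falls became 3 without thymus CCR7+ replicate 2.

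**Figure D5:**
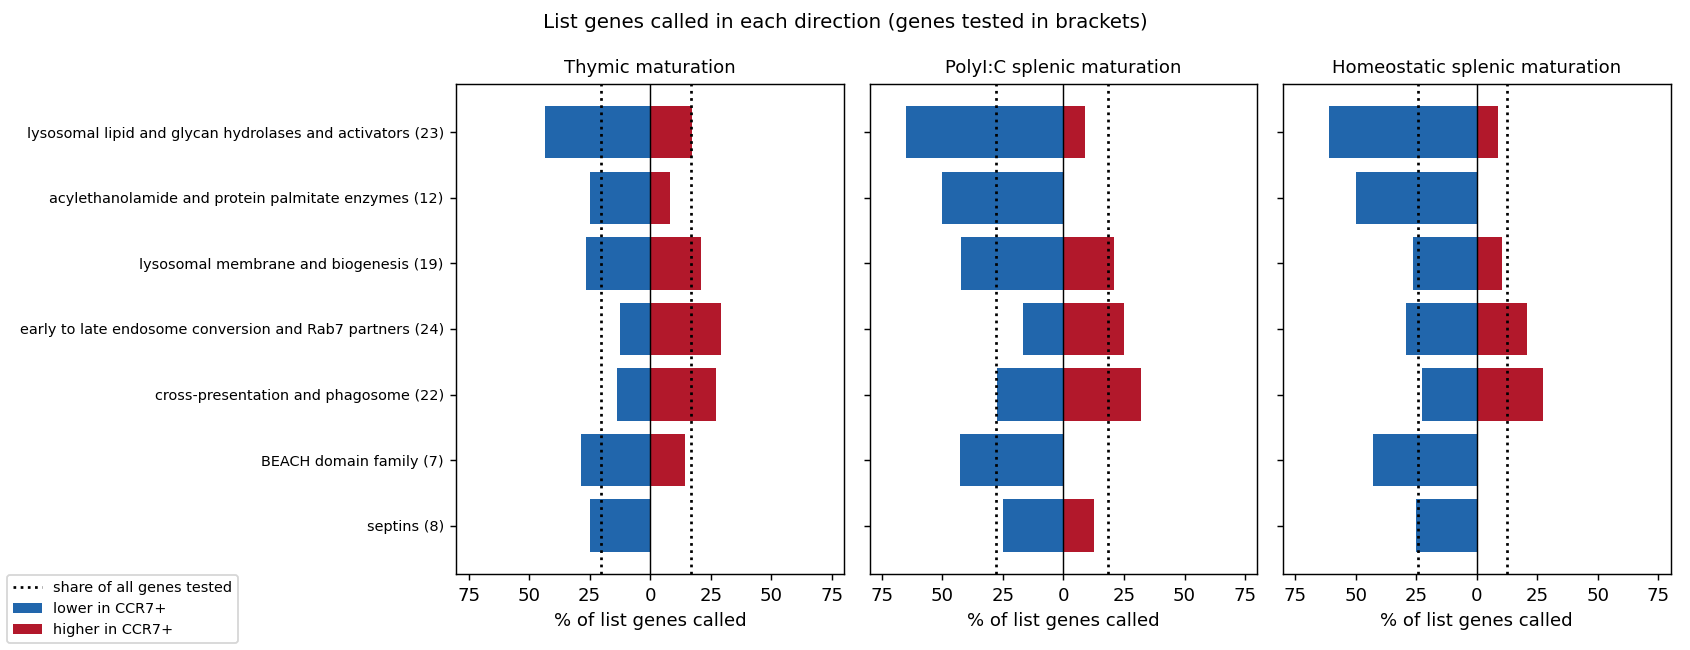
Percent of the tested genes of each list that were called lower (blue, to the left) or higher (red, to the right) in CCR7+ than in CCR7- cells, in thymic, polyI:C and homeostatic splenic maturation, with dotted lines at the percent of all genes called in that direction. The hydrolases fell in 10, 15 and 14 of 23 genes, and the cross-presentation and endosome lists hold rises as well as falls.

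Among 7 tested BEACH domain genes other than Wdfy4, 2 fell and 1 rose in thymic, and 3 fell in each of polyI:C and homeostatic splenic maturation, which is 28.6%, 42.9% and 42.9% lower, against 20.4%, 28% and 24.1% of all genes. Nsmaf, which encodes a factor bound to the TNF receptor, changed by -2.10, -2.26 and -2.20, and Lrba, which protects CTLA4 from lysosomal breakdown, by -1.34, -2.18 and -1.04 in thymic, polyI:C and homeostatic splenic maturation. Nbeal1 rose by 1.02 in thymic maturation. Wdfy3 changed by -0.49 in thymic, -0.99 in polyI:C and -1.12 in homeostatic splenic maturation. Its thymic change did not pass the test (limma, adjusted p = 0.0724). With the mean of all probe sets its homeostatic change was -0.24 and did not pass either (limma, adjusted p = 0.0991). Nbeal2, Lyst and Wdr81 passed in none of the 3 comparisons. Of 8 other septins tested, 2 fell in each of the 3 comparisons and 1, Septin10, rose by 0.55 after polyI:C. The falls were 25% of the septins in each comparison, near the shares of all genes. Septin6 changed by -2.09, -2.76 and -1.88, while Septin2 and Septin7 changed by -0.22 to 0.20 and did not pass the test. Septin11 changed by -1.11 in thymic maturation, a call that ended when number 1 or 3 of the thymus CCR7- or of the thymus CCR7+ arrays was left out (limma, adjusted p up to 0.143). The second septin that fell in homeostatic splenic maturation was Septin9, with a change of -0.97. The septin falls after polyI:C became 4 without number 3 of the untreated spleen CCR7+ or 1 of the polyI:C arrays, and the rise of Septin10 was lost without number 2 of the spleen CCR7- or 1 or 2 of the polyI:C arrays.

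Cd8b1, the CD8 beta chain, rose by 1.78 in thymic, 3.52 in polyI:C and 1.46 in homeostatic splenic maturation, where Cd8a changed by -1.24, -0.71 and -1.26. It is also 1 of the T cell markers whose levels are given with Cd8a, and its thymic minus splenic difference was 0.32 (limma, adjusted p = 0.771). Its probe set ends in _a_at, which marks probes shared between transcripts of a gene. Syk, a kinase downstream of Clec9a, changed by -1.98 after polyI:C.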

How the data were processed

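The 15 arrays hold log2 values that the authors deposited, made with RMA and affy per the submitters' processing notes (versions not given in the sources used here). RMA gives no detection calls, and changes of dim probe sets are compressed. RNA was amplified in 2 rounds, per the labels' protocols. Of 45101 probe sets, 34958 carried 1 symbol, 932 several and 9211 were not listed. Each gene was represented by its brightest probe set. Genes over 4.39 (percentile 40 of the table) on 3 or more arrays went into limma 3.58.1 under R 4.3.3. The model held a mean for each of the 5 groups, with eBayes, and p-values were adjusted by Benjamini-Hochberg over 13629 genes. A gene was called at an adjusted p under 0.05. The script was tested on simulated data.

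The members and the lists were chosen with earlier results of these data known, and 200 of the 220 list entries were on the arrays with a symbol of their own. Named list genes were picked from up to 2 rises and 2 falls per list and comparison, at least 2-fold and with separate groups. Some other genes that met this rule were not printed. Also named were the 3 genes most correlated with each member, the 8 most correlated with the members' mean profile, and some relatives of the members. P-values measure only the spread between these arrays, which may be technical, and 3 arrays per group limit the precision.

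Replicate numbers come from the titles. Over all groups 13 of 30 same-numbered pairs of arrays deviated together with r over 0.1. Between the tissues within each fraction all of them did (r of 0.42 to 0.59 in CCR7+ and 0.52 to 0.57 in CCR7- cells), so a block within each fraction was added after seeing the data. Other alternatives were the filter, the choice of probe set, renormalisation, centring, eBayes settings, array weights, the compared groups alone, and leaving out each array.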

Additional observations from a re-analysis of the deposited data

Results flagged for a closer look

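The thymic change differed from the homeostatic splenic change, by the limma contrast of the 2 changes, in 6 of the members. It also differed in 4 genes of the lists other than the marker lists. Of all genes tested 3.18% were called, 1.39% lower and 1.79% higher. The members were chosen for falls in these arrays, so their calls are not independent of that choice. The call of Ppt1 ended without any 1 of 7 arrays, that of Gcsam without any 1 of 3 and that of Ncf4 without any 1 of 9. The log2 difference, thymic minus splenic, was -3.59 for Naaa, -2.78 for Ppt1, -2.68 for Septin3, -2.60 for Wdfy4, -2.57 for Rab7b and -2.09 for Gcsam. Among the list genes it was -1.20 for Ncf4, 1.31 for Tpp1, 1.41 for Fuca1 and 2.15 for Sort1. For Tpp1 and Sort1 the level in CCR7- cells differed as well, with thymus minus spleen values of -2.45 (adjusted p = 1.5e-07) and -1.59 (adjusted p = 0.000348).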

How the results depend on the processing

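The number of members called was within 1.5 times the reported one under every alternative that kept all arrays, with 4 to 6 for the thymic minus splenic difference, 4 to 6 for polyI:C against untreated CCR7+ cells and 6 to 7 for thymus against untreated spleen CCR7+ cells. For thymus against spleen CCR7- cells it ran from 1 to 2 when single arrays were left out, Septin3 being the call lost. The mean of all probe sets ended the call of the Ppt1 tissue difference (-0.99, adjusted p = 0.0683), and the probe set of largest variance those of Naaa (-3.02, adjusted p = 0.0607) and Gcsam (-1.39, adjusted p = 0.089), as well as that of Naaa for polyI:C against untreated cells (-1.23, adjusted p = 0.159). A fit of the compared groups alone, with fewer arrays for the spread, ended the calls of Ppt1 (adjusted p = 0.136) and Rab7b (adjusted p = 0.101) for polyI:C and of Cd8a between CCR7+ cells (adjusted p = 0.0745). Uncalled values that changed sign were the Cd8a tissue difference (-0.25 with array weights; -0.66 to 0.48 without single arrays), Cd8a in polyI:C against untreated spleen CCR7+ cells (-0.13 to 1.01 without single arrays) and Rab7b between CCR7- cells (-0.093 with the mean of probe sets, -0.077 to 0.080 without single arrays); the cause was not tested. Over all genes, compared groups alone gave 1081 calls for polyI:C (against 2486) and 802 between CCR7+ cells (against 1660), and array weights gave 1988 between CCR7- cells (against 1112). The replicate block over all 15 arrays changed no member's call, and the block within each fraction, printed above where it did, called 6, 3 and 7 members in the 3 tissue comparisons. Without detection calls, signal near background limits the dim probe sets.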
